A study of Mus musculus with 10 samples.

Results

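The genes of MHC class I antigen presentation were followed in kidneys of mice that carry 1 activating allele of the nutrient sensor RagC. The set was drawn up by gene name and held 10 genes: the heavy chains H2-K1, H2-D1 and H2-Q7, the light chain B2m, the immunoproteasome subunits Psmb8 and Psmb9, the peptide transporter subunits Tap1 and Tap2, the peptide loading factor Tapbp and the transcriptional regulator Nlrc5. All 10 were among the 13837 genes of the deposited table, and all 10 passed the filter on low values. In RragcS74N/+ kidneys 2 of the 10 were higher after adjustment over all genes, H2-Q7 by 34.2% and Tapbp by 30.6%, where 1.67% of all genes tested were called higher. When 1 mouse was left out at a time, the call of H2-Q7 held in 1 of 10 fits and that of Tapbp in 3. The classical heavy chains H2-K1 and H2-D1 differed by 4.70% and 7.66% and were not called, beside coefficients of variation among mice of 12.4% and 6.17% in Rragc+/+ and 12.5% and 17.0% in RragcS74N/+ kidneys.

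Class I molecules display peptides from proteins made inside the cell. Proteasomes cut those proteins, the TAP transporter carries the peptides into the endoplasmic reticulum, tapasin holds the empty heavy chain and its β2-microglobulin light chain next to TAP, and the filled complex travels to the surface, where CD8 T cells read it. Interferons raise many genes of this pathway, and NLRC5 acts at the promoters of the heavy chains and their partners. RagC is a GTPase that recruits mTORC1 to the lysosome when amino acids are present.

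Kidneys of 5 Rragc+/+ and 5 RragcS74N/+ mice, all 3 months old, were compared as whole tissue, with 1 library per mouse. The S74N change was made with Cas9 in the endogenous Rragc gene together with silent changes, so it is present in every cell of the animal and on 1 of the 2 alleles. Control mice were wild type at Rragc, none of the mice was treated, and the sex of the mice used for these libraries was not given in the sources used here. Mice are numbered 1 to 5 within a genotype only to name them. The library codes fall into 2 runs of numbers, an earlier run with Rragc+/+ mice 1 and 2 and RragcS74N/+ mouse 1 and a later run with the other 7, in which the code of RragcS74N/+ mouse 5, ending in 66, stands apart from 53 to 58, and what set the runs apart is not given in the sources used here. Libraries held 6501552 to 7996087 reads counted in genes. Values are read counts divided by a size factor for each library, called normalised read counts here. The libraries were made from the 3′ ends of polyadenylated RNA. Transcripts of proximal tubule (Slc34a1, Lrp2), thick limb (Umod, Slc12a1) and collecting duct (Aqp2) were present in each library, as kidney should have them. Several tubule markers differed between the genotypes by more than any of the 10 genes did, with no overlap between groups: the log2 fold change was -0.999 for Umod, -1.20 for Slc12a3 of the distal convoluted tubule and -0.93 for Slc5a2 of the proximal tubule (limma adjusted p = 1.98e-04, 2.61e-07 and 4.64e-05). Of the collecting duct markers Slc4a1 fell (-0.59, limma adjusted p = 0.0137), while Scnn1g and Aqp2 were at 0.66 and 0.54 and not called (limma adjusted p = 0.0502 and 0.0887), and Slc22a6 of the proximal tubule rose (0.52, limma adjusted p = 0.00105). The part of these shifts in the class I values was not tested.

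**Figure D1:**
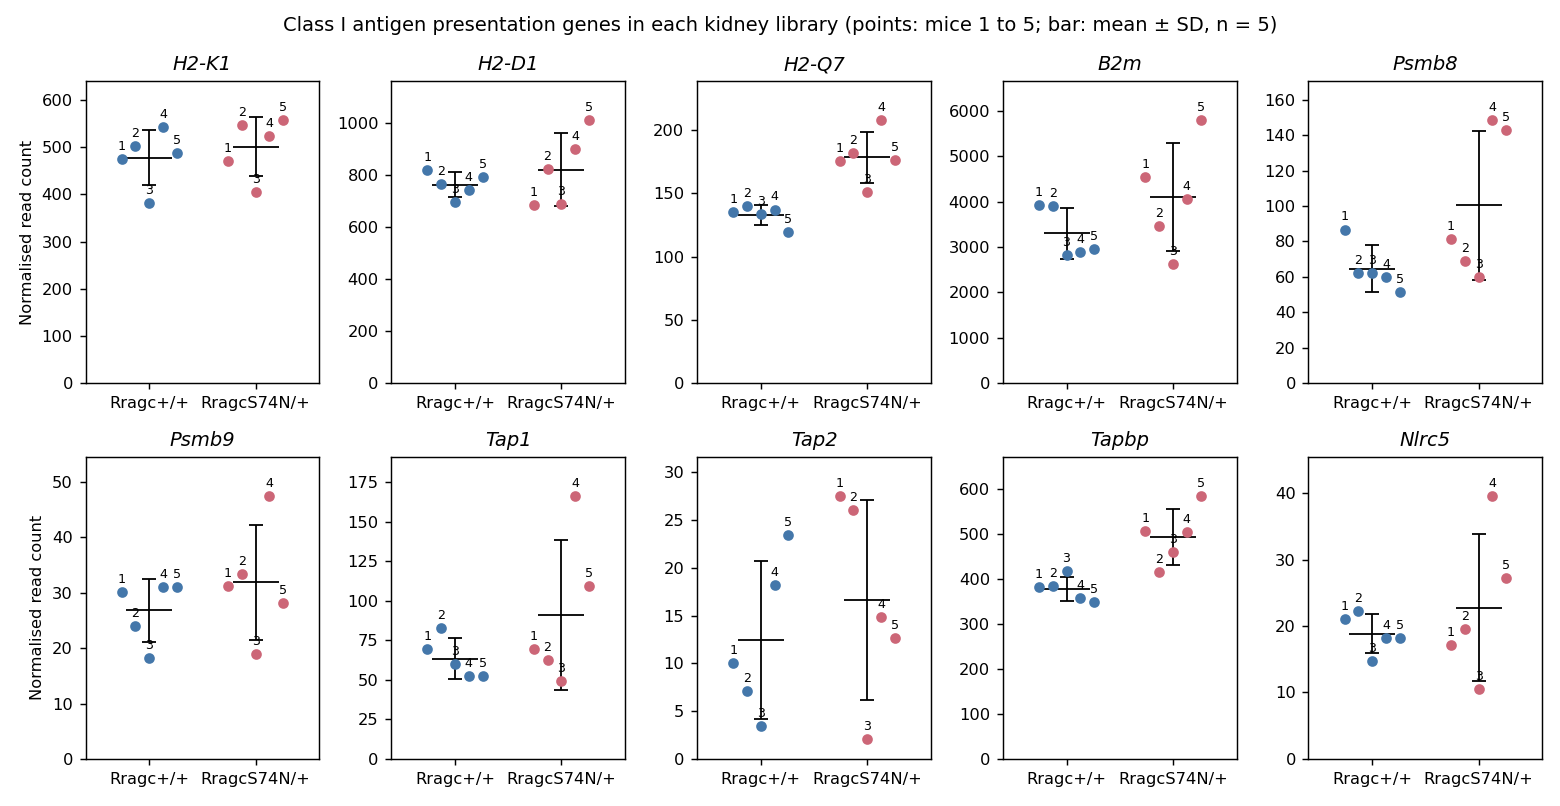
Normalised read count (y axes, from 0) of the 10 genes in each Rragc+/+ and RragcS74N/+ mouse, with mouse numbers above the points and bars for the mean and SD (n = 5). The 5 RragcS74N/+ values of H2-Q7 lie between 151 and 208, all above the Rragc+/+ values of 120 to 140, while the groups overlap for the other 9 genes.

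H2-K1 encodes a classical heavy chain present on nearly all nucleated cells. Its normalised read counts were 476, 503, 382, 542 and 487 in Rragc+/+ mice 1 to 5 and 471, 546, 406, 523 and 557 in RragcS74N/+ mice 1 to 5. The groups covered nearly the same range, with the lowest value of each genotype in its mouse 3. The means were 478 ± 59.3 and 501 ± 62.4 (SD, n = 5 each), and the log2 fold change (RragcS74N/+ over Rragc+/+, on log2 of the value plus 1, as throughout) was 0.066 with a standard error of 0.11 and a 95% interval from -0.16 to 0.30 (limma adjusted p = 0.841). H2-D1, the other classical heavy chain of this strain, read 819, 764, 696, 741 and 791 in Rragc+/+ mice and 683, 824, 689, 897 and 1009 in RragcS74N/+ mice. RragcS74N/+ mice thus held both the 3 highest and the 2 lowest values of H2-D1, and the SD was 139 around a mean of 821 against 47.1 around 762. Its log2 fold change was 0.092 ± 0.10 (SE; 95% interval -0.13 to 0.31; limma adjusted p = 0.755). The interval of neither gene reached a log2 fold change of 0.4.

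H2-Q7 encodes a non-classical heavy chain of the Qa-2 group, which can be held in the membrane by a lipid anchor. Counts were 135, 140, 134, 137 and 120 in the Rragc+/+ mice and 175, 182, 151, 208 and 176 in the RragcS74N/+ mice. All 5 RragcS74N/+ values exceeded all 5 Rragc+/+ values, a separation in this direction that 2.29% of all tested genes showed. The means of 133 ± 7.85 and 179 ± 20.1 (n = 5 each) gave a log2 fold change of 0.42 (SE 0.11, 95% interval 0.19 to 0.65; limma adjusted p = 0.0416), and the exact two-sided permutation test gave p = 0.00794, the smallest possible for 5 against 5 mice. The reads behind these values were few, 112 to 157 per Rragc+/+ library and 144 to 210 per RragcS74N/+ library. The Rragc+/+ mice differed among themselves by a coefficient of variation of 5.90%, below the 8.73% that counting error alone predicts at that depth. Leaving out 1 mouse at a time left the log2 fold change between 0.36 and 0.47, and the adjusted p, from 0.0211 to 0.126, stayed under 0.05 only without RragcS74N/+ mouse 3. Among the 7 libraries of the later run the log2 fold change was 0.45 (limma adjusted p = 0.106). Normalised read counts are levels in bulk tissue, so that a change in the number of cells of a type and a change in RNA per cell cannot be told apart for this or any other gene here.

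The heavy chains are alike in sequence, and reads can match more than 1 of them. Within the last 300 bases of the longest coding transcript of each gene (GENCODE transcripts for GRCm38), where a 3′ library places its reads, none of the 251 windows of 50 bases of H2-Q7 occurred in a transcript of another gene, against 0.797% of those of H2-K1 and 17.1% of those of H2-D1, whose most frequent partners (AC132307.5, Adsl and Kcnk4) were not heavy chains. Over its whole transcript, 34.9% of the windows of H2-Q7 were shared. These windows were matched exactly, while the paper's alignment allowed mismatches, so a read could fit another heavy chain where no window is shared. Summed over the 10 heavy chains in the table, a quantity that does not depend on how counted reads were divided among them but does on whether shared reads were counted, the counts were 1665, 1666, 1425.5, 1659 and 1661 in Rragc+/+ mice and 1641, 1862, 1461, 1979 and 2009 in RragcS74N/+ mice. The sum was 10.8% higher in RragcS74N/+ kidneys, a log2 ratio of 0.15 beside a pooled SD of 0.16 between mice, and RragcS74N/+ mice 1 and 3 lay within the Rragc+/+ range.

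The promoters of the heavy chains are shown because the class I genes are known for a shared set of upstream elements. The letters searched, on both strands of the 250 bases before each RefSeq start (GRCm38.p6), were AANNGAAA (bound by interferon regulatory factors), GGGNNTTNC (NF-κB), TGACG (the core of CRE-like and X2 elements), CCAAT and CACGTG (an E-box bound by lysosomal gene regulators of the MiT/TFE family). They occurred in 21.3%, 13.0%, 17.8%, 33.85% and 6.02% of all 32851 promoters of this length. RefSeq promoters were matched by symbol for 8 of the 10 genes, in 9 windows, all but those of Tap2 and Nlrc5. Capitals mark AANNGAAA, GGGNNTTNC and TGACG, and the lines run 5′ to 3′ on the coding strand:
H2-K1 (chr17:34000358-34000510, minus strand): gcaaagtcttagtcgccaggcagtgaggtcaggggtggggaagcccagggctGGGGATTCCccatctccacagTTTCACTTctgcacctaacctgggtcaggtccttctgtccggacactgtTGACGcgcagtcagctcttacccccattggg
H2-D1 (chr17:35262871-35263023, plus strand): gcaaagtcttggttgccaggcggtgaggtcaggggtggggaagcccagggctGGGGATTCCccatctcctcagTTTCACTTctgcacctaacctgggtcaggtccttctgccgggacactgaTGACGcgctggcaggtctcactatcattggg
H2-Q7 (chr17:35438970-35439120, plus strand): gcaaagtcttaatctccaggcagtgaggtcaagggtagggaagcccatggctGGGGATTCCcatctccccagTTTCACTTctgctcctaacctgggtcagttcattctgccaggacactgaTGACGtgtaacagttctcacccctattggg
B2m (chr2:122147528-122147639, plus strand): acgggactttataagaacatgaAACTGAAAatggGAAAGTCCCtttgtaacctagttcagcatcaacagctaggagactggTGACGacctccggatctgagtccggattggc

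All 4 promoters held 1 match each to AANNGAAA, GGGNNTTNC and TGACG, in the same order in the 3 heavy chains. H2-K1 and H2-D1, which did not pass the test, were 90.9% identical over this stretch, and each was 86.9% and 85.0% identical to H2-Q7, which did. CACGTG was in none of the 9 windows. These matches describe letters and say nothing of what binds there.

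B2m, the light chain that every class I heavy chain needs to reach the surface, was counted at 3919, 3911, 2836, 2890 and 2958 in Rragc+/+ mice and at 4555, 3471, 2620, 4066 and 5793 in RragcS74N/+ mice. RragcS74N/+ mice 1, 4 and 5 exceeded all Rragc+/+ mice and mouse 3 lay below them all. Means were 3303 ± 561 and 4101 ± 1189 (n = 5 each), and the log2 fold change of 0.28 (SE 0.16, 95% interval -0.06 to 0.62) did not pass the test (limma adjusted p = 0.457). Counting error was small for this abundant transcript, 1.54% in RragcS74N/+ mice against an observed coefficient of variation of 29.0%. The 2 high Rragc+/+ mice were 1 and 2, which belong to the earlier run of library codes. With the run as a term the log2 fold change of B2m was 0.35 (limma adjusted p = 0.187), and among the 7 libraries of the later run it was 0.40 (limma adjusted p = 0.316). It was 0.14 without RragcS74N/+ mouse 5 and 0.083 without RragcS74N/+ mice 4 and 5.

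Psmb8 and Psmb9 replace constitutive catalytic subunits in the immunoproteasome, the form that interferon induces. Psmb8 read 86.7, 62.3, 62.4, 60.03 and 51.2 in Rragc+/+ mice and 81.6, 68.8, 59.9, 148 and 143 in RragcS74N/+ mice. RragcS74N/+ mice 4 and 5 stood well above the other 8 mice, and RragcS74N/+ mice 1 to 3 lay within the Rragc+/+ range. The log2 fold change of Psmb8, 0.55 (SE 0.23, 95% interval 0.07 to 1.03), was the highest of the 10 genes and had an unadjusted p of 0.0285, but the limma adjusted p was 0.245 and the exact permutation p 0.119. Without RragcS74N/+ mice 4 and 5 the log2 fold change was 0.13. Psmb9 read 30.1, 24.01, 18.1, 31.1 and 31.0 in Rragc+/+ mice and 31.3, 33.4, 18.9, 47.4 and 28.2 in RragcS74N/+ mice. The groups overlapped, with a single high value in RragcS74N/+ mouse 4, and the log2 fold change was 0.21 (SE 0.24; limma adjusted p = 0.760).

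Tap1 and Tap2 form the transporter that moves peptides into the endoplasmic reticulum. Tap1 counts were 69.4, 82.7, 60.1, 52.5 and 52.3 in Rragc+/+ mice and 69.2, 62.3, 49.4, 166 and 109 in RragcS74N/+ mice. As for Psmb8, only RragcS74N/+ mice 4 and 5 exceeded the Rragc+/+ mice, and RragcS74N/+ mouse 3 was the lowest of the 10. The log2 fold change was 0.40 with a standard error of 0.25 (95% interval -0.14 to 0.94; limma adjusted p = 0.512). Tap2 was barely detected, with 2 to 29 reads per library, and read 10.04, 7.11, 3.40, 18.2 and 23.5 in Rragc+/+ mice and 27.5, 26.02, 2.10, 14.8 and 12.6 in RragcS74N/+ mice. No difference was detectable at this depth: the log2 fold change was 0.29 with an interval from -0.87 to 1.46 (limma adjusted p = 0.861). The Tap2 values did not rank the mice as Tap1 did, being highest in RragcS74N/+ mice 1 and 2.

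Tap1 and Psmb9 lie head to head on chromosome 17, and their RefSeq starts are 226 bases apart, so that they share 1 promoter interval. It is printed on the Tap1 strand (chr17:34187331-34187555, GRCm38.p6), with TGACG in capitals:
Tap1-Psmb9: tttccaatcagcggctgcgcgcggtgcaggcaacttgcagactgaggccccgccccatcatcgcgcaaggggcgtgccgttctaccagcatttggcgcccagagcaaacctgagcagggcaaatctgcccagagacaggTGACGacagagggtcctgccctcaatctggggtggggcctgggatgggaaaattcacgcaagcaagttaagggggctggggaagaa

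The interval held TGACG and CCAAT but neither AANNGAAA nor GGGNNTTNC as spelled here. The window of Psmb8 held none of the 5 sets of letters. The log2 fold changes were 0.40 for Tap1 and 0.21 for Psmb9. RragcS74N/+ mouse 4 was the highest of the 10 mice for both, and for 5 of the 10 genes in all. With the genotype means taken off, Pearson's r of Tap1 and Psmb9 over the 10 mice was 0.53. The median over all 45 pairs of the 10 genes was 0.55. The part of the shared interval in these values was not tested.

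Tapbp encodes tapasin, which bridges TAP and the heavy chain and edits the bound peptide. Its counts were 382, 383, 418, 358 and 348 in Rragc+/+ mice and 506, 415, 459, 503 and 584 in RragcS74N/+ mice. Of the RragcS74N/+ mice 4 exceeded all Rragc+/+ mice, and mouse 2, at 415, lay just under Rragc+/+ mouse 3, at 418. The means of 378 ± 27.3 and 493 ± 62.6 (n = 5 each) gave a log2 fold change of 0.38 (SE 0.10, 95% interval 0.17 to 0.58; limma adjusted p = 0.0401), with an exact permutation p of 0.0159. When 1 mouse was left out at a time the log2 fold change stayed between 0.31 and 0.44 and the adjusted p lay between 0.0191 and 0.123, under 0.05 without Rragc+/+ mouse 3, RragcS74N/+ mouse 2 or RragcS74N/+ mouse 3 and over it in the other 7 fits. Among the 7 libraries of the later run the log2 fold change was 0.38 (limma adjusted p = 0.136). None of the 50-base windows at the 3′ end of Tapbp matched another gene exactly. The bases before its RefSeq start (chr17:33919328-33919477, plus strand, GRCm38.p6) are printed because Tapbp was called and, unlike the heavy chains, has none of the letters in capitals above:
Tapbp: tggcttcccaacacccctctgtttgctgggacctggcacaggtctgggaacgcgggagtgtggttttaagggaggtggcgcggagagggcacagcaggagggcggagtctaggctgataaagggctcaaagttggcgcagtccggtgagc

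Neither AANNGAAA, GGGNNTTNC, TGACG nor CACGTG was found in the 250 bases before that start, and CCAAT was found there 2 times on the other strand, outside the stretch shown.

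Nlrc5 encodes the regulator that drives class I genes. It was low, with 10 to 40 reads per library, and read 21.0, 22.2, 14.7, 18.2 and 18.2 in Rragc+/+ mice and 17.1, 19.5, 10.5, 39.5 and 27.2 in RragcS74N/+ mice. RragcS74N/+ mice 4 and 5 were again the highest, and mouse 3 the lowest, of the 10. The means were 18.9 ± 2.91 and 22.8 ± 11.1, and the log2 fold change was 0.14 (SE 0.29, 95% interval -0.48 to 0.76; limma adjusted p = 0.873). In the Rragc+/+ mice the spread was no larger than counting error, at 15.4% against 23.1%.

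**Figure D2:**
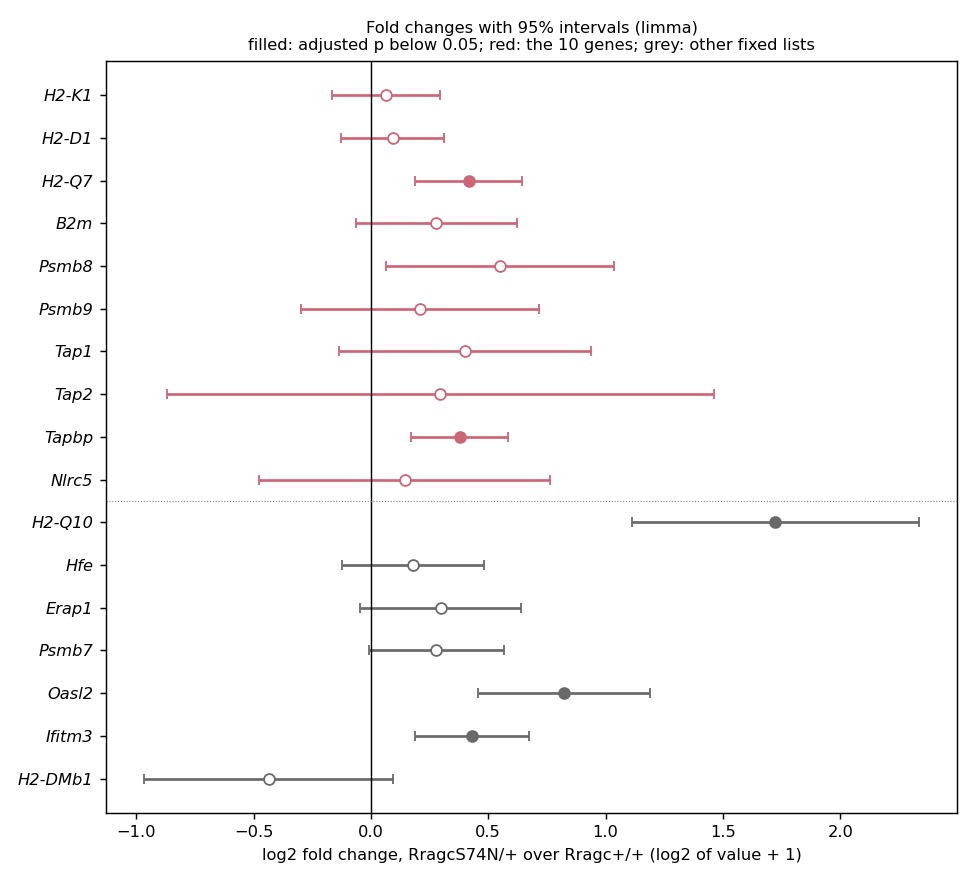
Log2 fold change, RragcS74N/+ over Rragc+/+, with its 95% interval from limma (x axis), for the 10 genes (red) and for genes named from related lists (grey), filled where the adjusted p is below 0.05. H2-Q7 and Tapbp are filled among the 10, at 0.42 and 0.38, and H2-Q10 lies farthest to the right at 1.72.

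Over the set, all 10 genes had a higher fitted level in the mutant. Their median difference was 0.29 on the log2 scale, beside 6612 of 13197 genes higher and a median of 0.00046 over all genes tested. The median of the 10 was 0.15, with 8 of 10 higher, without Rragc+/+ mouse 3, and 0.061, with 6 of 10 higher, without RragcS74N/+ mice 4 and 5. By limma 2 of the 10 were called higher and none lower, where 1.67% of all genes were called higher and 2.02% lower. At an unadjusted p below 0.05, 3 of the 10 were higher (H2-Q7, Tapbp and Psmb8), against 7.96% of all genes. H2-Q7 and Tapbp were also the 2 genes called on the whole reads by edgeR (1.65% of all genes called higher) and DESeq2 (2.40%), and with the run of library codes as a term (3.29%). The 10 genes are not independent of each other, and 8 of them lie on chromosome 17, with B2m on chromosome 2 and Nlrc5 on chromosome 8.

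**Figure D3:**
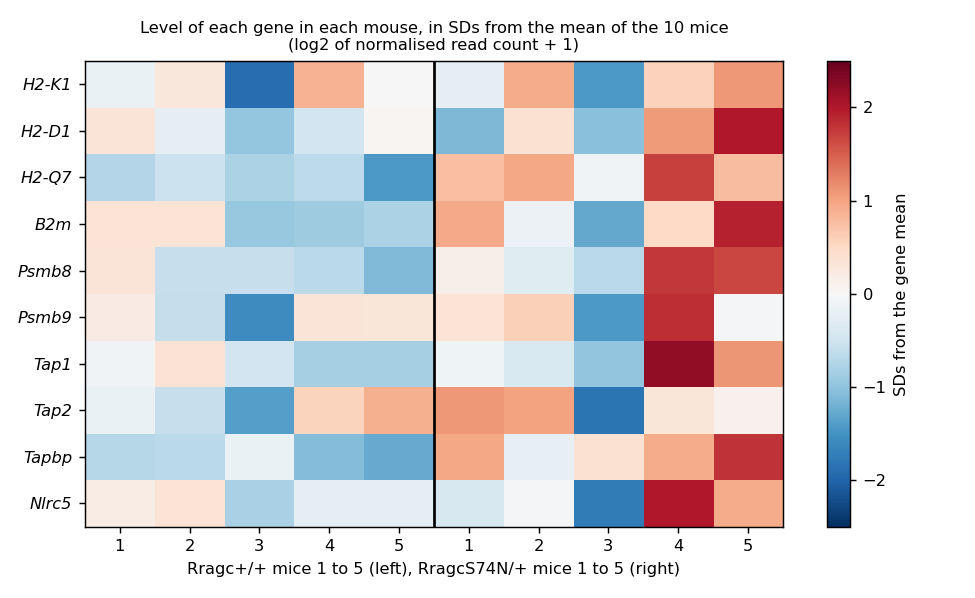
Level of each of the 10 genes in each mouse (columns, Rragc+/+ on the left and RragcS74N/+ on the right), in SDs from the mean of the 10 mice on log2 of the normalised read count plus 1. RragcS74N/+ mice 4 and 5 hold the highest value for 5 and 4 of the genes, and RragcS74N/+ mouse 3 the lowest for 4.

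RragcS74N/+ mouse 4 was the highest of the 10 mice for 5 genes, mouse 5 for 4 and mouse 1 for 1, so that no Rragc+/+ mouse was highest for any gene. RragcS74N/+ mouse 3 was the lowest for 4 genes. The mean standardised level of the 10 genes was 1.29 and 1.14 SDs above the mean in RragcS74N/+ mice 4 and 5 and 1.01 SDs below it in mouse 3, with Rragc+/+ mice between 0.96 below and 0.05 below it. H2-Q7 and Tapbp departed from this pattern in that all 5 RragcS74N/+ mice, mouse 3 included, lay above the Rragc+/+ mean. Without RragcS74N/+ mice 4 and 5, a choice made after their values were seen and one that lowers the differences by construction, H2-Q7 had a log2 fold change of 0.35 and Tapbp of 0.28 (limma adjusted p = 0.227 and 0.254), and those of H2-K1, H2-D1, Tap1 and Nlrc5 were -0.012, -0.061, -0.063 and -0.28.

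The genes whose level across the 10 mice was most like the mean of the members were Ano1, Pcp4l1, Trim12a, Fzd7 and Tmed5. Pearson's r was 0.93, 0.91, 0.90, 0.90 and 0.89, given as a description, since all genes were read in the same 10 libraries. These 5 were picked as the highest r among all other tested genes. High values follow from that choice, and whether they exceed chance was not tested. For the same picked genes, without RragcS74N/+ mice 4 and 5, the farthest from the median, r was 0.83, 0.86, 0.96, 0.86 and 0.74. None of these genes passed the test, their log2 fold changes being 0.30, 0.32, 0.27, 0.42 and 0.23.

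The other class I heavy chains included the gene with the highest fold change among the class I genes tested. H2-Q10, which encodes a secreted heavy chain known mainly from liver, read 8.22, 4.45, 4.54, 6.43 and 5.34 in Rragc+/+ mice and 18.0, 21.4, 16.8, 30.6 and 20.4 in RragcS74N/+ mice. The groups did not overlap, and the means of 5.79 ± 1.57 and 21.5 ± 5.45 gave a log2 fold change of 1.72 (SE 0.29; limma adjusted p = 0.00152). H2-Q10 passed the filter on low values only through the RragcS74N/+ mice, and with no filter its limma adjusted p was 0.00162. None of the windows at its 3′ end matched another gene exactly. Of the other heavy chains on the list, H2-K2, H2-Q4, H2-Q6, H2-T22 and H2-T23 were tested and not called, with log2 fold changes from -0.17 to 0.36, H2-T10 was under the filter, and 7 of the 14 listed names were not in the table. H2-Q4, H2-Q6, H2-T22 and H2-T23 share 45.4%, 40.2%, 49.4% and 50.6% of their 3′ windows with other genes, so their counts are uncertain.

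The promoter of H2-Q10 is shown for comparison with those of H2-K1, H2-D1 and H2-Q7 above. Its stretch was cut at the same distances from the AANNGAAA match as in H2-K1, so its ends need not match theirs (chr17:35469861-35470013, plus strand, GRCm38.p6):
H2-Q10: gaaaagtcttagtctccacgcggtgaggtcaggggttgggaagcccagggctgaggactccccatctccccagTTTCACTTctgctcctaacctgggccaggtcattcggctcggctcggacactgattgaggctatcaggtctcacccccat

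It held AANNGAAA, in capitals, but neither GGGNNTTNC nor TGACG, and was 81.0% identical to the H2-Q7 stretch and 82.4% to that of H2-K1. Gaps counted as differences, so where the stretch was cut enters these values.

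Among class I-like proteins, 4 of 9 listed genes were tested, all 4 had higher fitted levels and none was called. The highest fold change was that of Hfe, the iron-regulating relative that also pairs with B2m (log2 fold change 0.18, SE 0.14; limma adjusted p = 0.625). Cd1d1, which presents lipids and also needs B2m, was under the filter, with values of 3.56 to 6.39 in Rragc+/+ and 6.31 to 33.1 in RragcS74N/+ mice. Of 13 tested genes of peptide supply and assembly, 5 were higher, 8 lower and none called, with a median log2 fold change of -0.025. They include Erap1, which trims peptides in the endoplasmic reticulum (0.30; adjusted p = 0.417), the third immunoproteasome subunit Psmb10 (-0.043; adjusted p = 0.947) and the chaperone Calr (-0.18; adjusted p = 0.301). None of 14 constitutive proteasome genes was called, although all 5 RragcS74N/+ mice exceeded all Rragc+/+ mice for Psmb5, the subunit that Psmb8 replaces (893 ± 93.7 and 1026 ± 39.3, n = 5 each; log2 fold change 0.21, limma adjusted p = 0.232). None of 23 regulators was called.

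Interferon-stimulated genes outside the pathway had their highest summed levels in RragcS74N/+ mice 4 and 5, and their lowest in Rragc+/+ mouse 5. Of 21 tested, 18 had higher fitted levels in the mutant (median 0.33 on the log2 scale), and 2 were called. The 3 with lower fitted levels were Ifit2, Rsad2 and Cxcl9, at -0.70, -0.057 and -0.078 (limma adjusted p = 0.269, 0.866 and 0.950). Oasl2, of the oligoadenylate synthetase family, rose by a log2 fold change of 0.82 (SE 0.17; limma adjusted p = 0.0104), and Ifitm3, which restricts entry of enveloped viruses, by 0.43 (SE 0.12; limma adjusted p = 0.0456). The call of Oasl2 held in all 10 fits that leave out 1 mouse and that of Ifitm3 in 3. That of Ifitm3 was also lost with TMM rescaling, quantile normalization and in the later run alone (limma adjusted p = 0.0529, 0.0668 and 0.0730). The log2 fold change of Ifitm3 was then 0.43, 0.40 and 0.48. Without RragcS74N/+ mice 4 and 5 both calls were lost, with log2 fold changes of 0.60 for Oasl2 and 0.29 for Ifitm3 (limma adjusted p = 0.133 and 0.317). RragcS74N/+ mouse 4 was the highest of the 10 mice for 14 of the 21 genes and mouse 5 for 4. The summed level of the list was 3015 to 3396 in Rragc+/+ mice and 3222 to 5346 in RragcS74N/+ mice. Its part in the class I values was not tested.

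Class II presentation, which displays peptides taken up from outside the cell, had 4 tested genes higher, 4 lower and none called by limma. RragcS74N/+ mice 4 and 5 were each among the 3 highest mice for 7 of these 8 genes. The largest difference was that of H2-DMb1, a peptide exchange factor, at -0.44 (adjusted p = 0.448), and Cd74, the invariant chain, had 0.39 (adjusted p = 0.311).

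**Figure D4:**
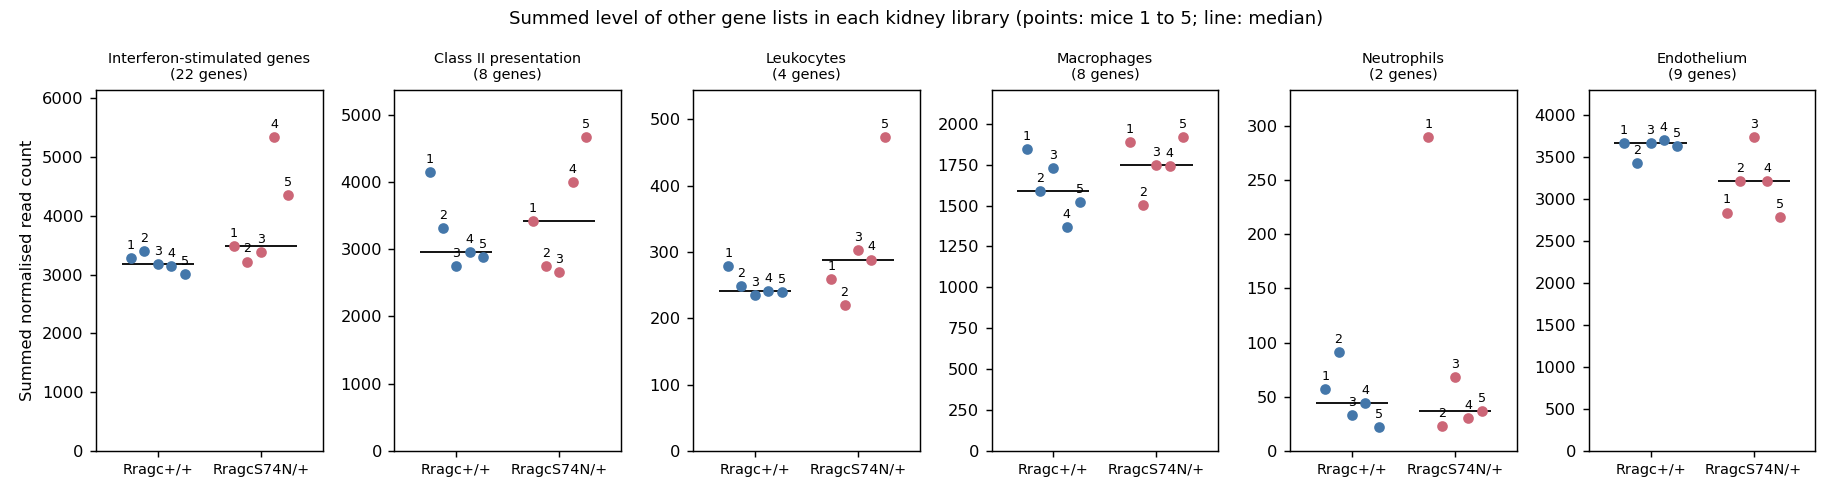
Summed normalised read count (y axes, from 0) of interferon-stimulated genes, class II genes and cell type markers in each mouse, with mouse numbers above the points and a line at the median of each genotype. RragcS74N/+ mouse 4 is highest for interferon-stimulated genes at 5346, and mouse 5 for leukocyte markers at 474.

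Cells of the immune system carry more class I than tubules do, and the leukocyte markers summed highest in 1 of the high libraries. The 4 leukocyte markers Ptprc, Coro1a, Laptm5 and Cd52 all had higher fitted levels and none was called. Their sum was 235 to 278 in Rragc+/+ mice and 219 to 474 in RragcS74N/+ mice, the highest being mouse 5. RragcS74N/+ mouse 4, the highest for 5 of the class I genes, was at 289. RragcS74N/+ mouse 3, the lowest for 4 of them, was at 303, and both lay above all Rragc+/+ mice. T and natural killer cell markers were mostly outside the table, with only Cd8a and Trac of 9 listed, summed at 34.2 to 52.5 and 37.2 to 58.4, and none of the 4 B cell markers was in it. The 8 macrophage markers summed to 1367 to 1847 and 1503 to 1921, and the 2 neutrophil markers in the table to 22.4 to 91.6 and 23.2 to 290, highest in RragcS74N/+ mouse 1. Endothelial cells, which also carry much class I, had 8 of 9 markers lower and none called, with sums of 3424 to 3698 and 2782 to 3737. Lcn2, a tubular injury marker, rose in the same kidneys (8.62 ± 1.13 to 33.5 ± 22.3, n = 5 each; limma adjusted p = 0.00406) and was highest, at 73.0, in RragcS74N/+ mouse 5. Like H2-Q10, Lcn2 passed the filter on low values only through the RragcS74N/+ mice. The part of these cell types and of injury in the class I values was not tested.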

How the data were processed

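Kidney RNA of 10 mice was made into QuantSeq 3′ libraries and sequenced as single reads. Per the labels and methods, the authors checked reads with FastQC 0.11.7, aligned them to GRCm39 with TopHat2 2.0.10 (Bowtie 1.0.0, SAMtools 0.1.19), counted them by strand with HTSeq 0.6.1 and tested with DESeq or DESeq2; how reads with several hits were counted is not given in the sources used here. The deposited values, a normalised signal, are read counts divided by a size factor, and 100% of them came out as whole reads within 0.01 of a read. The table held no gene with a mean under 5.64, so genes under that level were not analysed here.

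Genes with at least 10 in at least 5 mice (13197 of 13837) were tested with limma 3.58.1 (trend) on log2(value + 1) with no covariate, two-sided, with Benjamini-Hochberg adjustment over all of them and a threshold of 0.05. Exact permutation tests over mice were run for single genes. The alternatives were other pseudocounts (0.5 and 5), filters (none, or a mean of 50) and scalings, edgeR 4.0.16 and DESeq2 1.42.0 on the whole reads, the run of library codes (ending in 38 to 40 or 53 to 66) as a term or the latter run alone, and leaving out each mouse (over the genes that passed the filter with all 10 mice). Tests were tried on simulated data first. Named from each list were the genes called and otherwise the one with the largest change, and further genes were named after their values were seen. Some genes of these lists are not reported here. The genes, lists and motifs were chosen with earlier results of these data known. Promoters are RefSeq (GRCm38.p6), a build other than that of the counts. The p-values of limma rest on the spread between these 10 mice, drawn toward a trend over all tested genes. The 95% intervals are those of limma and rest on the same moderated spread between mice. Counting errors cover counting only, and reads without molecular identifiers are not independent molecules.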

Additional observations from a re-analysis of the deposited data

Results flagged for a closer look

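H2-Q7 in Rragc+/+ mouse 5 was 120 (119.58), apart from the other Rragc+/+ mice at 134 to 140. Without this mouse the log2 fold change of H2-Q7 was 0.38 (limma adjusted p = 0.126).

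The summed class I heavy chains in Rragc+/+ mouse 3 were 1425.5, apart from the other Rragc+/+ mice, which lay between 1659.4 and 1665.7. Both were found by the gap of a group's extreme value to its neighbour, measured against the range of the group, over 22 series of 5 mice, and chance alone sets apart about 1 in 20.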

How the results depend on the processing

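No paired analysis was possible because the labels give no replicate numbers. Genes called numbered 487 in all. With the run of library codes as a term there were 832, without RragcS74N/+ mice 4 and 5 together 314, and without 1 mouse at a time 295 to 466, the fewest being 295 without Rragc+/+ mouse 5 and 310 without Rragc+/+ mouse 4. Of the 10 class I genes 2 were called, 1 with quantile normalization (Tapbp at an adjusted p of 0.0536), 0 in the 7 libraries of the later run alone (H2-Q7 0.106, Tapbp 0.136), 0 without RragcS74N/+ mice 4 and 5, and 0 to 2 without 1 mouse at a time. Fewer mice enter the last 3, and the cause of the other changes was not tested. The limma log2 fold changes that changed sign belonged to genes that were not called: H2-K1 (-0.012), H2-D1 (-0.061), Tap1 (-0.063) and Nlrc5 (-0.28) without RragcS74N/+ mice 4 and 5, and Tap2 at -0.14 in the later run. Without 1 mouse at a time H2-K1 ranged from -0.012 (without Rragc+/+ mouse 3) to 0.14, Tap2 from -0.046 (without Rragc+/+ mouse 3) to 0.84 and Nlrc5 from -0.080 (without RragcS74N/+ mouse 4) to 0.37. Of those that kept their sign, the lowest values over 1.5 times under the reported one were Tap1 at 0.15 and Psmb9 at 0.053 without RragcS74N/+ mouse 4, and B2m at 0.14 and H2-D1 at 0.014 without RragcS74N/+ mouse 5. Leaving out 1 mouse also raised values over 1.5 times, B2m to 0.43 and Psmb9 to 0.37 without RragcS74N/+ mouse 3. That of H2-D1 went up to 0.15 without RragcS74N/+ mouse 1. H2-Q10, which passed the filter only through the RragcS74N/+ mice, was also called with no filter. The summed heavy chains moved by less than the spread between mice, from 0.10 to 0.21 on the log2 scale. Tap2, Nlrc5 and Psmb9, with few reads, are the genes that depth limits most.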
